A study of Mus musculus with 16 samples.

Results

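The genes of progranulin (Grn), prosaposin (Psap), sortilin (Sort1), the endocytic receptor Lrp1 and the lysosomal membrane protein Tmem106b were followed through 16 RNA libraries of primary mouse microglia. They were chosen by symbol, as progranulin, the proteins that carry or receive it and a gene that modifies disease risk in its absence. They make up 5 of the 56980 genes in the table, and all 5 were among the 12272 genes with enough counts to be tested. The cells were wild type (WT) or Grn knockout (KO), and each genotype was kept for 72 h in 2 uM rimeporide, an inhibitor of sodium-hydrogen exchange, or in the same share of its vehicle DMSO. That gave 4 groups of 4 libraries: WT with DMSO, WT with rimeporide, KO with DMSO and KO with rimeporide. By its title the series is about acidifying the lysosomes of cells that lack Grn, and the comparisons ask how these genes differ between the genotypes and whether rimeporide changes them in either one.

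The microglia were shaken off mixed glial cultures grown from the cortex and hippocampus of newborn mice, and no sort is named, so other glia and neurons can contribute RNA. The sources used here do not give the part of Grn that the knockout removes. The labels speak of 4 biological replicates per genotype, which can be read as cultures split over both treatments. The main tests do not assume this and count every library as independent. P-values set a difference between groups against the spread between libraries within groups, estimated from all 4 groups together. Each count is a tag from the 3' end of an mRNA, given below as CPM (its share of a library's counts on a fixed scale) after scaling of the libraries, so a level does not grow with the length of the mRNA. In such bulk samples, fewer cells of a type and less RNA per cell cannot be told apart.

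Progranulin is a secreted glycoprotein made of repeated cysteine-rich granulin domains. In the brain microglia make much of it. Sortilin at the cell surface binds its carboxyl end and takes it to lysosomes. Prosaposin binds progranulin as well and brings it along through Lrp1 or the mannose 6-phosphate receptor. In the lysosome, proteases cut progranulin into granulins and prosaposin into saposins, the small activators that present sphingolipids to their hydrolases. Loss of one copy of the human gene causes frontotemporal dementia, loss of both copies causes a neuronal ceroid lipofuscinosis, and variants at TMEM106B alter the risk in carriers.

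The sequences below show the bases upstream of Grn and Psap and the end of the Grn coding sequence. The upstream windows are the 250 bases before the annotated start, from RefSeq on GRCm38.p6, an older build than the GRCm39 named in the submitters' processing notes. Capitals in them mark CANNTG, the general E-box, of which CACGTG, the core bound by the lysosomal gene regulator TFEB, is the special case. Both motifs read the same on either strand. The Grn window lies at chr11:102430257-102430506 and the Psap window at chr10:60277378-60277627, both on the plus strand. The third line gives the last 42 bases of the Grn coding sequence of the GENCODE M21 annotation on chromosome 11, with the last 3 codons before the stop in capitals. They encode the tail which, in the human protein, sortilin binds.
Grn, bases upstream of the start: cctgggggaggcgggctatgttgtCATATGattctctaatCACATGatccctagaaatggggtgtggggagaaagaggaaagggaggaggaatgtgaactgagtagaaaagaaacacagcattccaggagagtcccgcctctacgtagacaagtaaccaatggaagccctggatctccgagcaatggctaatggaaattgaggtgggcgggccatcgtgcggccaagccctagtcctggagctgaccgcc
Psap, bases upstream of the first annotated start: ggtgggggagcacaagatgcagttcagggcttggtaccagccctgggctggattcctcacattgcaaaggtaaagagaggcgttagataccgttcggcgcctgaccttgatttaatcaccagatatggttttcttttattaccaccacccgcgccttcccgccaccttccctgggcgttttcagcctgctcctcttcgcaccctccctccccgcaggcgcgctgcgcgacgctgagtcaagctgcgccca
Grn, end of the coding sequence: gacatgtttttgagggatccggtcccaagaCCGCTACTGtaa

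The Grn window held CATATG at 226 and CACATG at 210 bases before the start, and the Psap window held no CANNTG. A second annotated Psap start had CATTTG at 150 bases, the Tmem106b window had CAGGTG at 100 bases, and the Lrp1 window had none. CACGTG was in none of these 5 windows. It was in 6.02% of the 32851 windows of all genes and in 14 of the 79 windows of the related genes described below. No entry was found for Sort1. In the longest annotated coding sequence, 88 of the 602 Grn codons encoded cysteine, a share of 14.6% that was above that of 99.4% of 20906 genes. The shares were 5.92% for Psap and 7.30% for Lrp1, against a median of 2.12% over all genes, and 1.98% for Sort1 and 1.82% for Tmem106b.

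Total counts ran from 3666367 to 7929470 per library. The 12 microglial markers were all detected, with a summed level of 3971 to 4410 CPM over the WT libraries and 3498 to 4345 CPM over the KO libraries. With DMSO alone the genotypes did not overlap, at 3971 to 4229 CPM in WT and 3498 to 3848 CPM in KO. With rimeporide they did, at 3983 to 4410 CPM in WT and 3760 to 4345 CPM in KO. Markers of other cell types moved with the genotype. The summed level of 10 astrocyte markers ran from 16.1 to 34.6 CPM in WT and from 72.5 to 110.9 CPM in KO, with no overlap. The summed level of 9 neuronal markers ran from 7.32 to 14.5 CPM in WT and from 45.0 to 82.6 CPM in KO, again with no overlap. The 9 markers of the oligodendrocyte lineage overlapped in their summed level, at 38.7 to 93.0 CPM in WT and 65.4 to 95.2 CPM in KO. Of the 12272 genes tested, 9.84% rose in KO and 5.80% fell in the average over both treatments. Averaged over treatments, 7 of 10 tested astrocyte markers rose and 1 fell, all 5 tested neuronal markers rose, and 5 of 7 tested oligodendrocyte markers rose and 1 fell. Of those that rose, 6, 3 and 5 passed the filter on low counts with the help of the KO libraries and would not have passed on WT alone, so that these counts are partly set by the filter. In the same average 5 of the microglial markers fell and none rose, and the 3 tested markers of border-associated macrophages fell, with a summed level of 1428 to 1696 CPM in WT and 1093 to 1464 CPM in KO. Of 4 tested markers of fibroblasts, endothelium and mural cells 1 rose and 1 fell, with sums of 14.1 to 36.7 CPM in WT and 13.2 to 29.7 CPM in KO. No marker of any list was at 0 in every library. The part of these shifts in the genotype results below was not tested.

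Grn itself was measured first, as the targeted gene. In WT it stood at 1827, 1639.7, 1659 and 1793 CPM with DMSO and at 1597, 1599, 1648 and 1672 CPM with rimeporide. In KO it stood at 10.7, 15.2, 12.1 and 12.4 CPM with DMSO and at 13.8, 13.7, 24.2 and 18.4 CPM with rimeporide. Each KO library lay far below each WT library, as its label says. The mean fell from 1729.5 ± 94.1 (SD, n = 4) to 12.6 ± 1.90 CPM (SD, n = 4) with DMSO, which left 0.73% of the WT level. With rimeporide it fell from 1629 ± 37 to 17.6 ± 4.96 CPM (SD, n = 4 each), or 1.08% of WT. On the log2 scale the change was -7.12 ± 0.14 (SE) with DMSO (edgeR, adjusted p = 3.47e-21) and -6.50 ± 0.13 with rimeporide (adjusted p = 1.63e-20). In each comparison Grn had the largest fall among the genes that passed, and the next largest among them were -3.42 and -3.04.

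The KO libraries still held Grn tags, 67 to 86 counts per library with DMSO and 55 to 145 with rimeporide. These tags were assigned to the 3' end of Grn and say nothing of protein. Whether they come from RNA of the KO cells was not tested. Within KO the level rose with rimeporide by 0.53 ± 0.15 (SE) on the log2 scale, with a 95% interval of 0.22 to 0.84 (edgeR, adjusted p = 0.0190). The groups overlapped: replicates 3 and 4 with rimeporide lay above every KO library with DMSO, and replicates 1 and 2 lay within their range. The call rested on single libraries. Without replicate 3 of KO with rimeporide the change was 0.30 (adjusted p = 0.181), and it also missed the threshold without replicate 1 (adjusted p = 0.0847) or 4 (0.0588) of KO with DMSO, or in a fit of the KO libraries alone (0.51, adjusted p = 0.110). In WT, rimeporide left Grn at -0.09 ± 0.10 (SE) on the log2 scale (edgeR, adjusted p = 0.988), with an interval of -0.29 to 0.11.

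**Figure D1:**
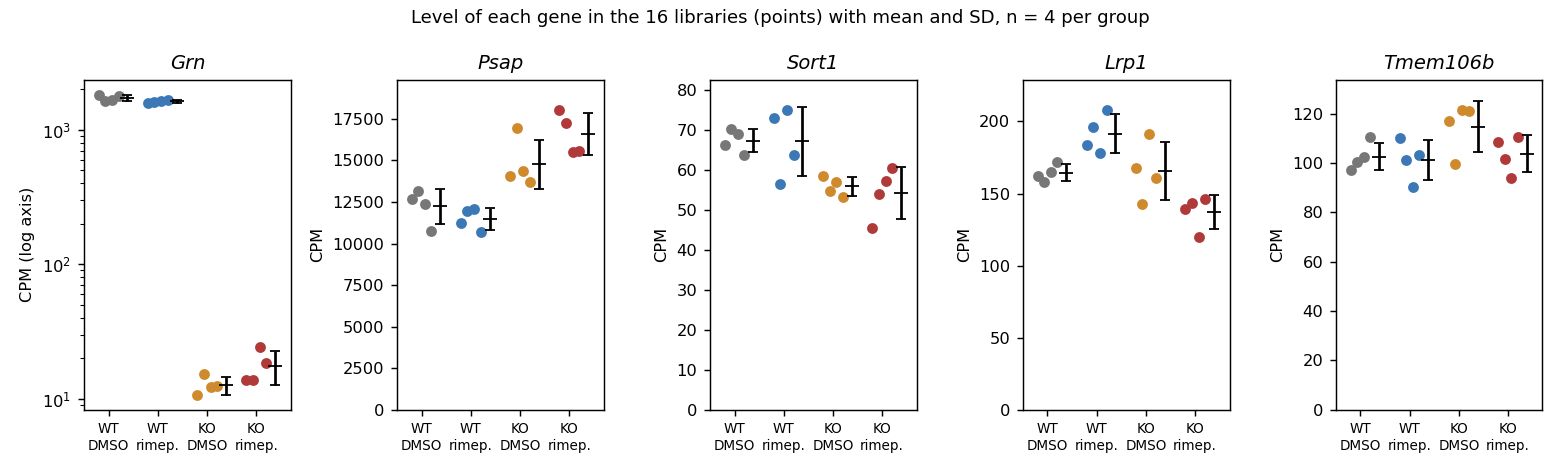
Level of Grn (log axis), Psap, Sort1, Lrp1 and Tmem106b in CPM, with 1 point per library by genotype and treatment and bars for mean and SD (n = 4). Grn lies at 10.7 to 24.2 CPM in KO and at 1597 to 1827 CPM in WT, every KO point of Psap lies above every WT point, and the Tmem106b groups overlap.

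Psap, the precursor of the saposins and a carrier of progranulin, was higher in KO. In WT it stood at 12690.3, 13183, 12382 and 10752 CPM with DMSO and at 11238, 11947, 12064 and 10688 CPM with rimeporide. In KO it stood at 14061, 16952, 14367 and 13700.5 CPM with DMSO and at 18054, 17268, 15532 and 15561 CPM with rimeporide. The 8 KO libraries all lay above the 8 WT libraries, so the genotypes did not overlap in either treatment. With DMSO the mean rose from 12252 ± 1050 to 14770 ± 1480 CPM (SD, n = 4 each), a log2 change of 0.27 ± 0.08 (SE) with an interval of 0.11 to 0.43 (edgeR, adjusted p = 0.0179). That call was lost without replicate 4 of WT with DMSO, the lowest of its group (0.21, adjusted p = 0.0617), and without replicate 2 of KO with DMSO, the highest of its group (0.18, adjusted p = 0.0618). It was also lost in a fit of these 8 libraries alone (0.26, adjusted p = 0.0791).

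With rimeporide Psap rose from 11484 ± 644 in WT to 16604 ± 1260 CPM in KO (SD, n = 4 each), a log2 change of 0.53 ± 0.08 (SE) with an interval of 0.37 to 0.69 (edgeR, adjusted p = 5.31e-05). Averaged over both treatments the KO level was 0.40 ± 0.06 (SE) higher on the log2 scale, or 1.32-fold (adjusted p = 7.97e-06), and it stayed between 0.35 and 0.42 when any 1 library was left out. Psap tags made up between 1.04% and 1.79% of all counts of a library. Rimeporide gave -0.09 ± 0.08 (SE) in WT (adjusted p = 0.985) and 0.17 ± 0.08 in KO (adjusted p = 0.150), and neither passed. With the replicate number in the model the value in KO passed (edgeR, adjusted p = 0.034). Replicates 1 and 2 of KO with rimeporide lay above every KO library with DMSO, and the other 2 lay within their range. The difference between these 2 responses was 0.26 ± 0.11 (SE), with an interval of 0.03 to 0.49, and did not pass after adjustment (edgeR, adjusted p = 0.208). Replicate 2 of KO with DMSO bore on both: without it the response in KO was 0.24 (adjusted p = 0.0184) and the difference 0.33 (adjusted p = 0.0292).

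Sort1 encodes sortilin, the receptor that clears progranulin from the cell surface. In WT it stood at 66.4, 70.3, 69.1 and 63.7 CPM with DMSO and at 73.2, 56.6, 75.1 and 63.9 CPM with rimeporide. In KO it stood at 58.4, 54.8, 57.1 and 53.3 CPM with DMSO and at 45.4, 54.0, 57.3 and 60.5 CPM with rimeporide. All 8 KO libraries lay below the 4 WT libraries with DMSO, whereas replicate 2 of WT with rimeporide lay among the KO libraries. Within DMSO the log2 change was -0.27 ± 0.10 (SE) with an interval of -0.48 to -0.05 (edgeR, adjusted p = 0.0779). Within rimeporide it was -0.31 ± 0.11, with an interval of -0.53 to -0.09 (adjusted p = 0.0895). Neither passed by itself with edgeR, and both passed narrowly with DESeq2 (adjusted p = 0.0498 and 0.0486).

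Averaged over both treatments, Sort1 fell in KO by 0.29 ± 0.07 (SE) on the log2 scale, or 1.22-fold, with an interval of -0.44 to -0.13 (edgeR, adjusted p = 0.00883). This call was kept in each of the 16 fits that left out 1 library, with values from -0.34 to -0.26. Its SE and p count the libraries of both treatments as independent, which would not hold if the treatments shared cultures. Without replicate 2 of WT with rimeporide, the change within rimeporide passed as well (-0.40, adjusted p = 0.0273). Rimeporide moved Sort1 by less than the spread between libraries, -0.00083 ± 0.10 (SE) on the log2 scale in WT and -0.04 ± 0.11 in KO (edgeR, adjusted p = 1.00 and 0.840). The intervals, -0.22 to 0.22 and -0.26 to 0.18, show the size of change that lies within the error.

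Lrp1 encodes a large endocytic receptor that takes up prosaposin together with progranulin, along with many other ligands. In WT it stood at 162.3, 158.0, 165.1 and 172.1 CPM with DMSO and at 183.7, 195.9, 177.9 and 208.2 CPM with rimeporide. In KO it stood at 167.9, 142.4, 191.5 and 161.0 CPM with DMSO and at 139.1, 143.1, 119.8 and 146.5 CPM with rimeporide. WT with rimeporide lay above WT with DMSO without overlap, and KO with rimeporide lay below both WT groups without overlap. KO with DMSO had the widest spread and overlapped all the others.

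With rimeporide Lrp1 fell from 191.4 ± 13.5 CPM in WT to 137.1 ± 11.9 CPM in KO (SD, n = 4 each), a log2 change of -0.48 ± 0.09 (SE) with an interval of -0.67 to -0.29 (edgeR, adjusted p = 0.000926). Leaving out any 1 library kept this between -0.53 and -0.44. With DMSO the genotypes stood at 164.4 ± 5.92 and 165.7 ± 20.3 CPM (SD, n = 4 each), a log2 difference of 0.01 ± 0.09 with an interval of -0.17 to 0.20 (adjusted p = 0.945). The average over treatments was -0.24 ± 0.06 (SE) (adjusted p = 0.0126), and this mean joins a difference present with rimeporide to one near 0 with DMSO.

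Within KO, Lrp1 fell with rimeporide by 0.28 ± 0.09 (SE) on the log2 scale (edgeR, adjusted p = 0.0425), close to the threshold. The call was lost in 7 of the 16 fits that left out 1 library, and the value was smallest, at -0.20, without replicate 3 of KO with DMSO (adjusted p = 0.160). Replicate 3 of WT with DMSO, replicates 1 and 4 of KO with DMSO and replicates 1, 2 and 3 of KO with rimeporide were the others, and a fit of the KO libraries alone also lost it (adjusted p = 0.0972). Within WT the value was 0.22 ± 0.09 in the other direction, with an interval of 0.03 to 0.41, and it did not pass (edgeR, adjusted p = 0.819). The difference between these 2 responses was -0.50 ± 0.13 (SE), with an interval of -0.76 to -0.23 (edgeR, adjusted p = 0.0952). It missed the threshold with all libraries in the main edgeR fit. With all libraries it passed with DESeq2 (adjusted p = 0.0315), with no filter on low counts (0.0151) or with the replicate number in the model (0.023). It also passed without replicate 2 of KO with DMSO (-0.56, adjusted p = 0.00383) or replicate 3 of WT with rimeporide (adjusted p = 0.0444). The same difference for Grn was 0.62 ± 0.18 (edgeR, adjusted p = 0.0976). For Grn it passed under the same settings (0.0325, 0.0190 and 0.0369) and without replicate 2 of KO with DMSO (0.70, adjusted p = 0.0108).

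Tmem106b encodes a lysosomal membrane protein that takes part in lysosome acidification and transport and modifies disease risk in human carriers of progranulin mutations. In WT it stood at 97.2, 100.6, 102.4 and 110.5 CPM with DMSO and at 110.2, 101.5, 90.5 and 103.5 CPM with rimeporide. In KO it stood at 117.1, 99.6, 121.7 and 121.0 CPM with DMSO and at 108.7, 101.9, 94.1 and 110.6 CPM with rimeporide. Every group overlapped every other, although 3 of the 4 libraries of KO with DMSO were the highest of all 16. The log2 difference between genotypes was 0.16 ± 0.09 (SE) with DMSO and 0.03 ± 0.09 with rimeporide (edgeR, adjusted p = 0.214 and 0.913). Their intervals ran from -0.02 to 0.35 and from -0.16 to 0.22. Rimeporide gave -0.02 ± 0.09 in WT and -0.15 ± 0.09 in KO (adjusted p = 1.00 and 0.274).

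**Figure D2:**
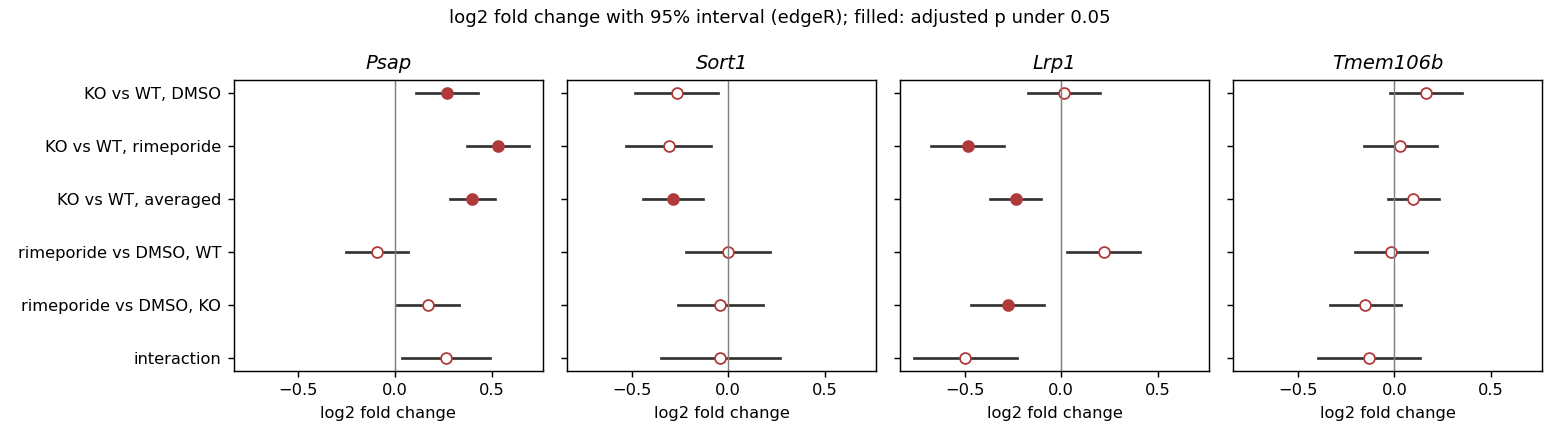
Log2 fold change of Psap, Sort1, Lrp1 and Tmem106b (x axis) with its 95% interval from edgeR in 6 comparisons (rows), filled where the adjusted p was under 0.05. Psap is filled in the 3 comparisons of genotype, Sort1 only in their average, Lrp1 with rimeporide, in the average and for rimeporide in KO, and Tmem106b in none.

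The 5 genes were chosen with earlier results of these data known, so the shares given here only describe them. Set against all genes, 2 of the 5 genes passed for KO against WT with DMSO, where 18.6% of the 12272 genes passed. With rimeporide 3 of 5 passed, where 7.46% of the genes did. Grn was the deleted gene in each count, so 1 of the other 4 genes passed with DMSO and 2 of them with rimeporide. In the average over treatments 4 of 5 passed against 15.6%: Psap, Sort1, Lrp1 and the deleted Grn. For rimeporide in KO 2 of 5 passed against 14.8%: Lrp1 and the remaining tags of the deleted Grn. For rimeporide averaged over the genotypes 0 of 5 passed against 3.66% by edgeR, and 1 of them, Grn, had an unadjusted p under 0.05 (0.0198), while DESeq2 passed none of them.

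For rimeporide in WT edgeR passed 0 of 5 and 0 of the 12272 genes. The unadjusted p was under 0.05 for 676 genes, Lrp1 among them, and DESeq2 passed 6 genes and none of the 5. For the difference between the responses to rimeporide edgeR passed 0 of 5, against 0.0163% of the genes. Unadjusted p-values under 0.05 were found for 2277 genes, including Grn, Psap and Lrp1, and DESeq2 passed 184 genes including Grn and Lrp1. Each group enters several comparisons, so comparisons that share its libraries are not independent of each other.

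**Figure D3:**
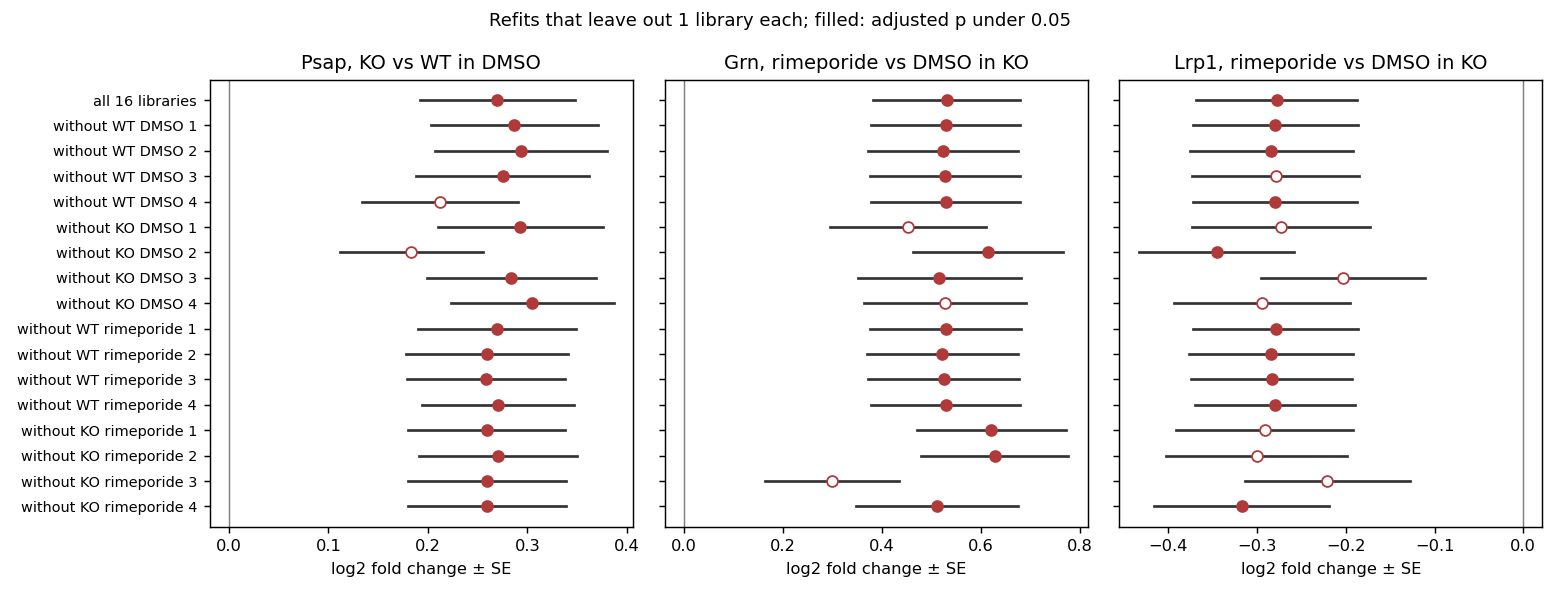
Log2 fold change ± SE (x axis) with all 16 libraries and with each library left out in turn (rows), for the calls closest to the threshold, filled where the edgeR adjusted p was under 0.05. Psap in DMSO loses its call in 2 fits, Grn with rimeporide in KO in 3 and Lrp1 with rimeporide in KO in 7, while no value changes sign.

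The genes whose pattern over the 16 libraries was most like each of the 5 were sought among 5725 named genes with a mean of at least 20 CPM. Likeness was the root-mean-square difference of the centred log2 CPM. Psap was closest to Slc25a39 (0.111), Ncoa4 (0.112) and Fabp5 (0.121), against a median of 0.307 over all candidates. Sort1 was closest to Abracl (0.0841), Nisch (0.108) and Lipa (0.112), with a median of 0.262. For Lrp1 the nearest were Rnf128 (0.108), Mrc1 (0.108) and Top1 (0.115), with a median of 0.261, and Mrc1 is also one of the border macrophage markers. Tmem106b, which varied little, had Cbx3 (0.0619), Erp29 (0.0620) and Txn1 (0.0683) nearest, with a median of 0.208. No gene came close to Grn, whose nearest, Cytip, was 2.86 away.

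The pathway lists, like the 5 genes, were chosen with earlier results of these data known. Beyond the 5 genes, 94 genes of the same pathways stood in the table and 82 had enough counts. Averaged over treatments 17 of them rose and 4 fell in KO, so 25.6% passed, against 15.6% of all genes. With DMSO 16 rose and 4 fell (24.4%, against 18.6%), and with rimeporide 7 rose and 2 fell (11%, against 7.46%). Of the 82 genes, 6 would not have passed the filter on WT libraries alone, among them 4 of those that rose. Among the other 76 genes 22.4% passed in the average (13 rose, 4 fell), 19.7% with DMSO and 6.58% with rimeporide, the last 2 near the shares of all genes. The values below are log2 changes for KO against WT averaged over treatments, ± SE, with edgeR adjusted p-values, unless another comparison is named. In this average 9.84% of all tested genes rose and 5.80% fell, the shares beside which the counts per list stand.

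Of 14 receptors, ligand partners and sorting adaptors 3 rose and none fell. Igf2r, the large mannose 6-phosphate receptor that carries hydrolases to lysosomes, rose by 0.45 ± 0.11 (adjusted p = 0.00610), from 121.9 ± 15.5 to 194.5 ± 46.8 CPM with DMSO (SD, n = 4 each). This average joins 0.68 with DMSO (adjusted p = 0.00384) to 0.22 with rimeporide (adjusted p = 0.532), and Igf2r fell with rimeporide in KO (-0.48, adjusted p = 0.0428). Sorl1, a sorting receptor of the same family as sortilin, rose by 0.44 ± 0.12 (adjusted p = 0.00983). Within DMSO it stood at 0.38 (adjusted p = 0.0924) and within rimeporide at 0.49 (adjusted p = 0.0866), and neither passed by itself. In the averages Sorl1 and Sort1 therefore differed in direction. Gpr37l1, an astrocyte receptor of prosaposin-derived peptides, was near 0 in WT (0.105 ± 0.21 CPM with DMSO) and at 2.35 ± 0.75 CPM in KO with DMSO. It was tested only because of its counts in KO, so its place among the 3 is no support for the list, and it was higher where the astrocyte markers were.

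Of 8 relatives of Lrp1 in its receptor family 3 rose and none fell, while Lrp1 itself fell in the average. Vldlr and Lrp1b stood at 0.86 and 0.35 CPM in WT with DMSO and at 4.94 and 1.63 CPM in KO with DMSO, and both were tested only because of their counts in KO, where the neuronal and astrocyte markers were also higher. Lrp12 rose by 0.23 ± 0.07 (adjusted p = 0.0304), a call lost in 10 of the 16 fits without 1 library.

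Among 15 lysosomal proteases and inhibitors, which include enzymes that cut progranulin and prosaposin, 3 rose and 1 fell. Cathepsin Z (Ctsz) rose by 0.42 ± 0.06 (adjusted p = 6.79e-06), and the macrophage elastase Mmp12 by 0.32 ± 0.08 (adjusted p = 0.00991). Legumain (Lgmn), an asparaginyl endopeptidase of the lysosome, rose by only 0.13 ± 0.04 (adjusted p = 0.0471) and lost the call in 15 of the 16 fits without 1 library. Cathepsin C (Ctsc), which activates serine proteases, fell by 0.23 ± 0.07 (adjusted p = 0.0257), a call lost without replicate 1 or 4 of WT with DMSO (adjusted p = 0.0660 and 0.0636).

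Of 11 hydrolases and activators that work with the saposins 2 rose and none fell. Gm2a, the activator of ganglioside breakdown, rose by 0.44 ± 0.07 (adjusted p = 7.78e-05), and Smpd1, acid sphingomyelinase, by 0.40 ± 0.11 (adjusted p = 0.0127). Both passed within DMSO (0.60 and 0.57), whereas within rimeporide Gm2a stood at 0.29 ± 0.10 (adjusted p = 0.101) and Smpd1 at 0.22 ± 0.16 (adjusted p = 0.527). Hexa, a hexosaminidase subunit, rose in KO with DMSO by 0.33 ± 0.08 (adjusted p = 0.00498) and fell with rimeporide in KO by 0.40 ± 0.08 (adjusted p = 0.00396). Its mean went from 535.4 ± 29.8 CPM in WT with DMSO to 675 ± 88.3 in KO with DMSO and 511.4 ± 15.5 in KO with rimeporide (SD, n = 4 each). Those comparisons share the libraries of KO with DMSO.

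Of 5 genes of the lysosomal lipid BMP, which progranulin deficiency is known to lower, 1 rose and 1 fell. Pld3, which has been assigned a part in BMP synthesis, rose by 0.41 ± 0.05 (adjusted p = 7.63e-07), from 353.2 ± 13.7 to 506.4 ± 18.3 CPM with DMSO (SD, n = 4 each). Pla2g15, a lysosomal phospholipase, fell by 0.32 ± 0.07 (adjusted p = 0.00223). Of 12 ceroid lipofuscinosis genes only Cln8, an adaptor that exports lysosomal enzymes from the endoplasmic reticulum, rose (0.47 ± 0.07, adjusted p = 3.35e-05), an average of 0.73 with DMSO (adjusted p = 1.76e-05) and 0.21 with rimeporide (adjusted p = 0.271). Of 6 relatives and partners of Tmem106b only Map6, a microtubule-binding protein of neurons, rose (0.99 ± 0.24, adjusted p = 0.00438), as the neuronal markers did.

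Of 11 further genes of frontotemporal dementia and motor neuron disease 3 rose and 2 fell. Mapt, which encodes the neuronal protein tau, stood at 1.65 ± 0.63 CPM in WT and 16.4 ± 5.29 CPM in KO with DMSO (SD, n = 4 each), where the neuronal markers were also higher, and it too was tested only because of its counts in KO. The autophagy receptor Sqstm1 fell by 0.36 ± 0.05 (adjusted p = 1.83e-05), from 1131 ± 61.4 to 854.4 ± 87.8 CPM with DMSO. Tbk1, the kinase that acts on it, fell by 0.26 ± 0.08 (adjusted p = 0.0225), a call lost in 3 fits without 1 library, and stood at -0.37 with DMSO (adjusted p = 0.0202) and -0.15 with rimeporide (adjusted p = 0.534). Optn, another autophagy receptor, rose by 0.54 ± 0.17 (adjusted p = 0.0314), a call lost in 9 such fits. The third that rose was Tardbp (0.20 ± 0.06, adjusted p = 0.0320), named here after its value was seen. Of the 4 MiT/TFE transcription factors, regulators of lysosomal genes, edgeR passed none in this average, adjusted or not. The one with the smallest p, Tfe3, stood at -0.15 ± 0.08 (adjusted p = 0.231). For rimeporide in KO 1 of the 4 rose, a call lost in 11 of the 16 fits without 1 library.

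**Figure D4:**
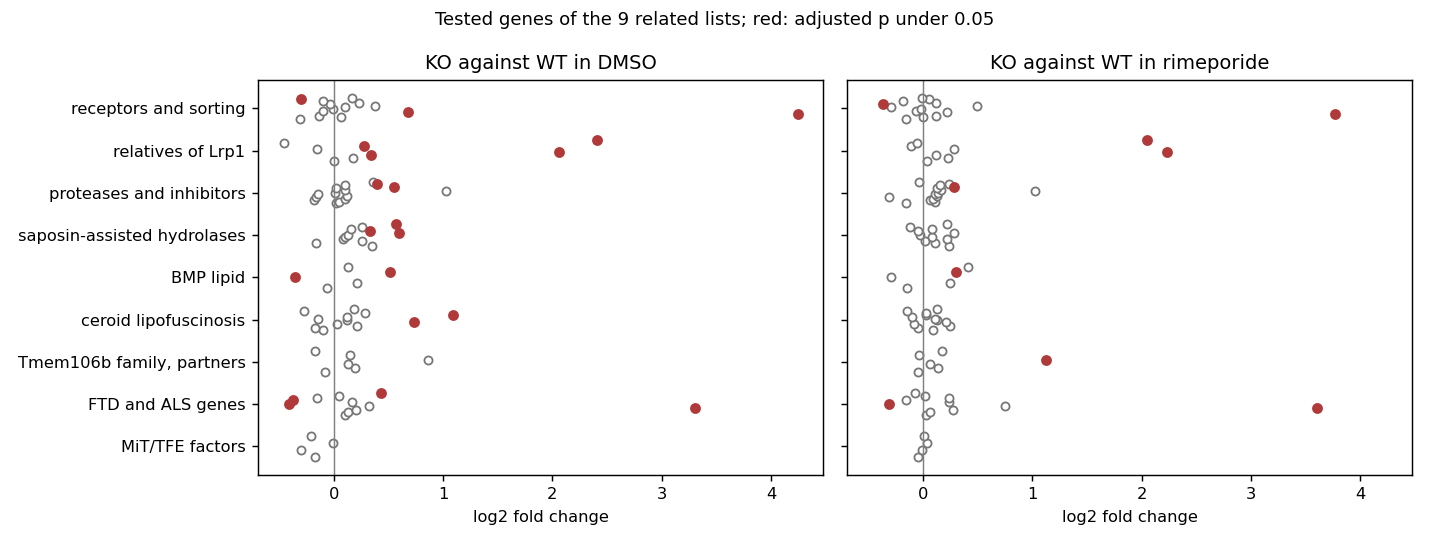
Log2 fold change for KO against WT (x axis) of each tested gene of 9 pathway lists (rows), with DMSO on the left and with rimeporide on the right, in red where the edgeR adjusted p was under 0.05. With DMSO 16 of 82 genes rose and 4 fell, with rimeporide 7 rose and 2 fell, and the points beyond 2 are Gpr37l1, Vldlr, Lrp1b and Mapt.

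With rimeporide, averaged over the genotypes, 1 of the 82 genes rose and 3 fell (4.88%, against 3.66% of all genes). Scarb2, the receptor that brings glucocerebrosidase to lysosomes, fell by 0.29 ± 0.07 (adjusted p = 0.0288), from 348.6 ± 60.1 to 248.8 ± 21 CPM in KO and from 324.4 ± 10.4 to 303.4 ± 19.6 CPM in WT (SD, n = 4 each). Hexa fell by 0.21 ± 0.06 (adjusted p = 0.0399) and Atp6ap1, an accessory subunit of the proton pump that Tmem106b binds, by 0.27 ± 0.08 (adjusted p = 0.0492). Atp13a2, a lysosomal polyamine transporter, rose by 0.30 ± 0.08 (adjusted p = 0.0384). These 4 averages were fragile, since the call was lost in 7 of the 16 fits without 1 library for Scarb2 and in 11 for each of the others. The averages of Scarb2 and Hexa join a change in KO to values of -0.10 and -0.02 in WT (adjusted p = 0.988 and 1.00), and the difference between the genotypes did not pass for either (adjusted p = 0.144 and 0.103). Within KO alone 5 of the 82 genes rose and 8 fell, a share of 15.9% near the 14.8% of all genes, with Scarb2 at -0.49 ± 0.10 (adjusted p = 0.00415), a call kept in all 16 fits without 1 library.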

How the data were processed

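Microglia of 4 groups with 4 libraries each were profiled by sequencing mRNA 3' ends with molecular identifiers, per the labels' protocols. The authors deposited expected counts per gene, which came from Salmon on GRCm39 per the submitters' processing notes. The sources used here do not say whether duplicates were removed before counting. Estimated counts were rounded to whole numbers, which changed 13.7% of the values. The log2 CPM values that the authors deposited differed from those computed here by at most 0.105 for the 5 genes.

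The counts were tested in R 4.3.3 with edgeR 4.0.16 (filterByExpr with a minimum count of 10 and total of 15, TMM scaling, quasi-likelihood test, 1 mean per group, 12 residual degrees of freedom). There were 7 comparisons, and p-values were adjusted by Benjamini-Hochberg over 12272 genes, with a threshold of 0.05. SEs were derived from the F statistic, and 95% intervals from SE and the t distribution. The scripts were tested on simulated data. Alternatives were other scaling, DESeq2 1.42.0, other filters, counts not rounded, a replicate block, only the groups compared and each library left out.

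The 5 genes and all gene lists were chosen with earlier results of these data known. From each of the 9 pathway lists the text names up to 4 genes that passed in the averaged genotype comparison, by smallest p, and the smallest p for averaged rimeporide where it passed, and 1 gene where none passed. No 2 libraries of a group agreed within sampling noise (chi-square over degrees of freedom of 3.4 or more in 24 pairs). The highest values, 22.5, 17.5 and 11.8, were those of the pairs with replicate 2 of KO with DMSO. Amino acid sequences were not used here. One pathway gene is not reported here and was left out of the lists and their counts.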

Additional observations from a re-analysis of the deposited data

Results flagged for a closer look

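In WT with DMSO, the summed level of the border macrophage markers in replicate 4 was 1638 CPM, far above the other 3 libraries relative to the range of the group. This replicate was also the lowest of its group for Psap (10752 CPM). A test of this kind marks about 1 in 20 groups by chance, and 44 groups were checked.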

How the results depend on the processing

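Depth limits the Grn values in KO, which rest on 55 to 145 counts. Of the 15 genotype values of the 5 genes, none that passed changed direction under any alternative. In WT the rimeporide value of Sort1, near 0, changed sign with RLE scaling (0.0015), DESeq2 (0.0030) and no filter (0.0088), as did Lrp1 between genotypes in DMSO with a filter of 1 CPM (-0.0045). With DESeq2, Sort1 passed in DMSO (-0.28) and in rimeporide (-0.32), the difference between responses passed for Grn (0.63) and Lrp1 (-0.50), and genes called numbered 6 for rimeporide in WT, 184 for that difference and 796 for averaged rimeporide. With no filter those counts were 95, 630 and 970, and Grn (0.56) and Lrp1 (-0.55) passed for the difference. The labels speak of 4 biological replicates per genotype, which can be read as cultures split over both treatments. They do not say that a replicate number marks a shared culture, so the main fits did not pair the libraries. Same-numbered libraries correlated over 0.1 in 14 of 24 pairings (-0.07 to 0.465) and matched their own number best in 14 of 24. Each match had 4 candidate libraries, so unrelated numbers would match in a smaller share on average. Replicate 4 matched its own number best in every pair of groups. Whether same-numbered libraries share a source was not settled. With the replicate block those counts of genes called were 6, 694 and 1321. Psap then passed for rimeporide in KO (0.17), and Grn (0.62) and Lrp1 (-0.50) passed for the difference. With only the groups compared, Psap in DMSO (0.26) and, for rimeporide in KO, Grn (0.51) and Lrp1 (-0.28) were lost.

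Without 1 library, genes called ran from 1430 to 3345 for genotype in DMSO, 0 to 40 for rimeporide in WT, 643 to 3002 for rimeporide in KO, 0 to 1497 for the difference and 11 to 1746 for averaged rimeporide. The upper ends of these ranges, other than 40, all came without replicate 2 of KO with DMSO. Between genotypes, Psap (0.18 to 0.30) and Lrp1 (-0.062 to 0.064) in DMSO, and Sort1 (-0.40 to -0.25) and Tmem106b (-0.033 to 0.073) in rimeporide, changed call or sign. So did, for rimeporide in WT, Sort1 (-0.061 to 0.071) and Tmem106b (-0.061 to 0.028), and in KO, Grn (0.30 to 0.63), Psap (0.12 to 0.24), Sort1 (-0.10 to 0.028) and Lrp1 (-0.35 to -0.20). For the difference these were Grn (0.39 to 0.71), Psap (0.21 to 0.33), Sort1 (-0.12 to 0.030) and Lrp1 (-0.56 to -0.42). For averaged rimeporide they were Grn (0.11 to 0.27), which passed without replicate 2 of KO with DMSO (adjusted p = 0.0457), Sort1 (-0.054 to 0.013) and Lrp1 (-0.065 to 0.0082). The causes were not tested. For the pathway genes, 34 of 60 results kept their side of the threshold in all their alternatives, and none changed sign.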
